A study of Mus musculus with 4 samples.

Results

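The response of mouse embryonic stem cells to BMP4 given together with an ALK5 inhibitor was described from 2 of the 4 RNA‐seq samples of the series, the 2iJ+B−A sample and the 2iJ sample. Both came from R1, an established line of mouse embryonic stem cells (mESCs), at day 2. Cells in 2iJ received CHIR99021 (3 µM), which inhibits GSK3, PD0325901 (1 µM), which inhibits MEK, and a JAK inhibitor (2 µM), and 2iJ+B−A held in addition BMP4 at 10 ng/ml and an inhibitor of the TGF‐β family receptor ALK5 at 10 µM. The other samples, whose levels are given beside these, were R1 mESCs at day 2 in 2i−L and trophoblast stem cells (TSCs) of the F4 line. The 2i−L medium has the same CHIR99021 and PD0325901 but no LIF and no JAK inhibitor. The paper describes 2iJ as a condition without LIF too. All genes with at least 1 CPM (counts divided by the scaled library size) in 2iJ or 2iJ+B−A were compared, 13459 of the 37620 gene identifiers. Each condition had 1 sample, so no difference below has a replicate check and no test between conditions was possible. BMP4 and the ALK5 inhibitor were added together, so their effects cannot be told apart. TSCs differ from the other samples in line and in culture protocol as well as in cell type. According to the paper, responses to added signals were tested in medium that held serum.

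BMP ligands bind type I and type II receptor kinases that phosphorylate Smad1, Smad5 and Smad9, and these enter the nucleus with Smad4 and switch on the Id genes, the inhibitory Smad6 and many developmental transcription factors. Nodal and Activin signal through the related receptors ALK4 and ALK7, and TGF‐β through ALK5. These receptors act on Smad2 and Smad3, with FoxH1 as a partner. Classic targets of Nodal and Activin include their own antagonists Lefty1 and Lefty2. The paper describes its ALK inhibitor as selective for ALK4, ALK5 and ALK7. In the early mouse embryo BMP4 is made by the extraembryonic ectoderm, which descends from trophoblast, and acts with Nodal and Wnt to pattern the neighboring epiblast.

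The largest decreases were in the Nodal antagonists and the largest increases in transcription factors of trophoblast and of BMP‐exposed tissue. Lefty2 had 9088 counts in 2iJ and 0 in 2iJ+B−A, and Hand1, a bHLH factor needed for trophoblast giant cells and the heart, had 45 and 3889. Of the compared genes, 817 were at least 2‐fold higher in 2iJ+B−A (6.07%) and 451 at least 2‐fold lower (3.35%), together 9.42%. By the same rule 2.29% of 13173 genes differed between 2iJ and 2i−L, a comparison that shares the 2iJ sample. At least a 4‐fold difference was seen for 141 higher and 58 lower genes, and at least an 8‐fold difference for 20 higher and 12 lower genes. Of the 817 higher genes, 248 were under 1 CPM in 2iJ and were compared only through their level in 2iJ+B−A, and 138 of the 451 lower genes only through their level in 2iJ. A filter passed in 1 sample alone favors genes that differ, so higher or lower members of that kind are counted apart in the lists where they matter. Among the 12926 genes with at least 1 CPM in 2iJ, 4.4% were higher, and among the 13036 with at least 1 CPM in 2iJ+B−A, 2.4% were lower. In contrast, 78.84% of the compared genes lay within 1.5‐fold, and the median log2 ratio was −0.005. All log2 ratios set 2iJ+B−A over 2iJ, on the scale of CPM + 0.5, which understates the change of low genes, and each interval is a 95% Clopper–Pearson interval that covers counting error only. The interval lay wholly beyond 2‐fold for 500 of the higher and 262 of the lower genes. In a bulk sample, fewer cells of a type and less RNA per cell cannot be told apart.

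**Figure D1:**
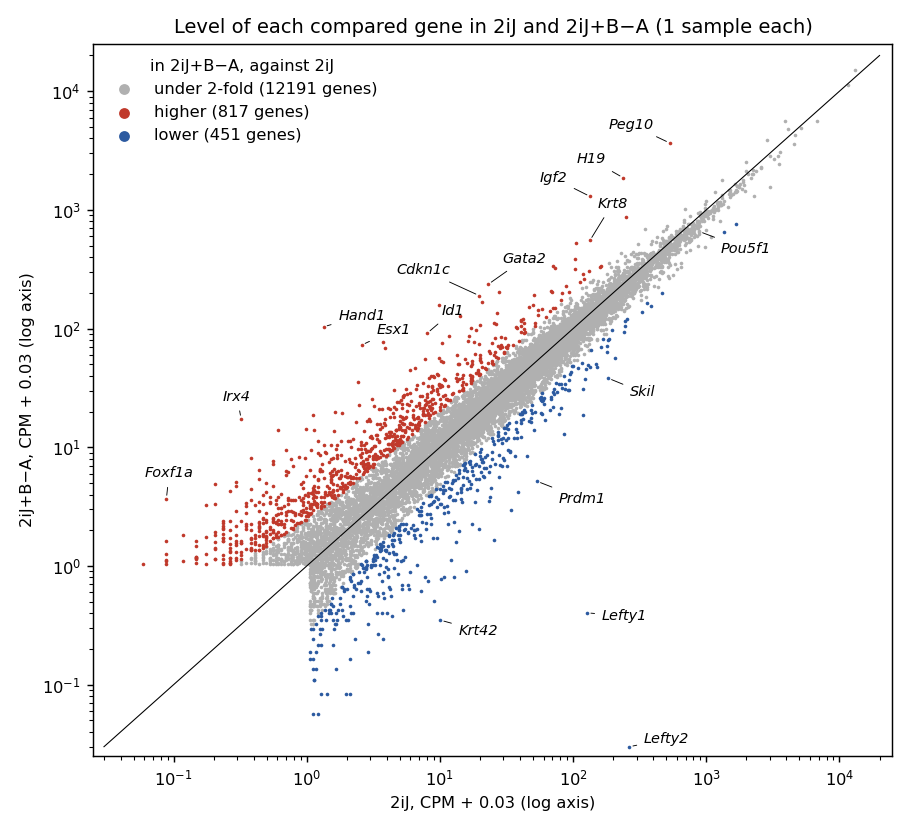
Level of each compared gene in the 2iJ sample (x axis) and in the 2iJ+B−A sample (y axis), in CPM + 0.03 on log axes, with 817 genes at least 2‐fold higher in red, 451 at least 2‐fold lower in blue and the rest in gray. The line marks equal levels, and Lefty2, with 0 counts in 2iJ+B−A, sits at the lower edge.

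The libraries were similar in depth and composition. Counts on genes ranged from 33913984 to 36964392 in the 4 samples, and the CPM of 3 counts, taken as the smallest detectable signal, ranged from 0.0799 to 0.0902. The 10 reference genes, among them Actb and Tbp, had log2 ratios between −0.26 and 0.57, and Actb has copies elsewhere in the genome. Pluripotency markers were present in 2iJ+B−A, with Pou5f1 (Oct4) at 884.7 CPM in 2iJ against 658.0 CPM in 2iJ+B−A, beside 899.3 CPM in 2i−L and 1.34 CPM in TSCs. The defining TSC gene Elf5 had 5 counts in 2iJ+B−A, 2 in 2iJ, 1 in 2i−L and 10471 in TSCs. The TSC marker Cdx2 was at 33.6 CPM in 2iJ+B−A versus 6.70 CPM in 2iJ, 2.62 CPM in 2i−L and 45.1 CPM in TSCs. The other TSC markers chosen, Gata3, Eomes and Tfap2c, had log2 ratios of 1.31, −1.78 and −0.32.

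To show what lies at the start of the genes described next, promoters of 300 bases, from 250 bases before the start site to 50 bases after it, were read from RefSeq (GRCm38.p6). Capitals mark the GC‐rich box GGCGCC, known to be bound by BMP Smads, which reads the same on both strands, or in Tdgf1 the FoxH1 box AATNNACA, which was searched on both strands. The promoters are printed 5′ to 3′ on the strand of the gene. Id2, Smad9, Gata2 and Irx4 are shown as genes with higher counts in 2iJ+B−A and a box in the window, Id3 as one with higher counts and no box, and Tdgf1 as a gene with lower counts.
Id2, chr12:25096043-25096342, minus strand: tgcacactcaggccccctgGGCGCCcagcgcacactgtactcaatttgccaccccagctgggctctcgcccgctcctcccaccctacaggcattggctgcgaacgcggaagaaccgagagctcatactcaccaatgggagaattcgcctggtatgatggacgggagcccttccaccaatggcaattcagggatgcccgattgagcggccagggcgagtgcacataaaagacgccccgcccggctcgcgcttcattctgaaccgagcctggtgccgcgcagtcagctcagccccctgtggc
Smad9, chr3:54755332-54755631, plus strand: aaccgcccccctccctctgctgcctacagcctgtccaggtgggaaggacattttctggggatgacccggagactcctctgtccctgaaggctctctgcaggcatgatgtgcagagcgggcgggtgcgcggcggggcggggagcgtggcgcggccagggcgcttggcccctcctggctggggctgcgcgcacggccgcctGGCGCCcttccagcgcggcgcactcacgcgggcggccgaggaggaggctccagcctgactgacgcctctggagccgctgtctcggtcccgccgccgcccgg
Gata2, chr6:88198414-88198713, plus strand, the gene's other promoter not shown: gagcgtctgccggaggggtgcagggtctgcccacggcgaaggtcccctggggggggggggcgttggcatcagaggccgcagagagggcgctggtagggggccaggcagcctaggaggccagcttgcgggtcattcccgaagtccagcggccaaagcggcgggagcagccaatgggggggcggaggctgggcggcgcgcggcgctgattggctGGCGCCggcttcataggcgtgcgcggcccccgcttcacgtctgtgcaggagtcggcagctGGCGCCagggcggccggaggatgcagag
Irx4, chr13:73260247-73260546, plus strand: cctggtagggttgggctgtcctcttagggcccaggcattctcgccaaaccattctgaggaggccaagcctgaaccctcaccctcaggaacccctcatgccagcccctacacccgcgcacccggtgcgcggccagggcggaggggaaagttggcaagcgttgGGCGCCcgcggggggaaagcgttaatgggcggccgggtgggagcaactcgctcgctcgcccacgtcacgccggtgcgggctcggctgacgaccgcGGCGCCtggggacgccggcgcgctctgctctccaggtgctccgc
Id3, chr4:136143572-136143871, plus strand: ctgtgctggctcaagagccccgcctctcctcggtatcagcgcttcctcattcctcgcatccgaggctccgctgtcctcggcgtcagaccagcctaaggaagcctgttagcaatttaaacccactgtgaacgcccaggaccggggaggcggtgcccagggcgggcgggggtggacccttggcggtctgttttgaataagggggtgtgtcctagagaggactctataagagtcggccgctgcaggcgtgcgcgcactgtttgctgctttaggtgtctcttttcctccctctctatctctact
Tdgf1, chr9:110946109-110946408, minus strand: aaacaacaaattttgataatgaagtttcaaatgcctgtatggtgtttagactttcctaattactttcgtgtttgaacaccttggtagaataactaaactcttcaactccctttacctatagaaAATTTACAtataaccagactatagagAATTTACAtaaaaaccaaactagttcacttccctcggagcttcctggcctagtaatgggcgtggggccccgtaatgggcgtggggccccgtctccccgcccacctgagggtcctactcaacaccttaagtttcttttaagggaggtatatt
The first base of the box lay at −231 in Id2, at −51 in Smad9, at −38 and 22 in Gata2 and at −89 and 6 in Irx4, counted from the start site. In Tdgf1, the FoxH1 boxes began at −127 and −101. Of all 32851 promoters in the table, 11.9% held GGCGCC and 12.2% held AATNNACA. Promoters were found for 10 of the 16 Id and BMP feedback genes, 17 of the 32 BMP‐induced factors and 8 of the 15 Nodal/Activin targets. The GGCGCC box was in 5 of the 10 promoters found for Id genes and BMP feedback genes, in 8 of 19 for the BMP‐induced transcription factors (42.1%) and in 1 of 14 for the Nodal/Activin targets (7.14%). Of the 5 Id and feedback genes with the box, Id2 and Smad9 were at least 2‐fold higher, while Id4 lay within 2‐fold and Chrd and Grem1 were under 1 CPM in both samples. Of the 5 without it, 3 were higher. Of the 8 BMP‐induced factors with the box, 6 were higher and Hand2 and Tfap2b were under 1 CPM. Of the 6, Dlx2, Irx4 and Isl1 were compared only through their level in 2iJ+B−A. Of the 9 without the box, 4 were higher. At most 2 of the other 5 were compared, since only 2 compared factors of the whole list lay within 2‐fold. The numbers higher with and without the box therefore cannot be set against each other. The FoxH1 box was in 0 of 10, 1 of 19 (5.26%) and 3 of 14 (21.4%) promoters of the same lists. The Nodal/Activin targets with it were Tdgf1, which was lower, and Tgif1, which lay within 2‐fold. These matches describe the letters of the window and are not evidence of binding.

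Among the Id genes and the feedback inhibitors of BMP signaling, 3 of the 4 Id genes and several inhibitors were higher in 2iJ+B−A. Of 13 compared members of 16, 8 were at least 2‐fold higher and 0 at least 2‐fold lower, with a median log2 ratio of 1.62, beside 6.07% higher and a median of −0.005 over all compared genes. Of these 8, 3 were under 1 CPM in 2iJ, and of the 10 members with at least 1 CPM there, 5 were higher. Id proteins are HLH factors without a DNA‐binding region that hold bHLH factors inactive. Id1 (NCBIM37 chromosome 2, 152561987 to 152563146) had 91.6 CPM in 2iJ+B−A versus 8.01 CPM in 2iJ, 6.41 CPM in 2i−L and 24.4 CPM in TSCs, with a log2 ratio of 3.44 (interval 3.27 to 3.61). Id2 was at 20.5 CPM in 2iJ against 165.9 CPM in 2iJ+B−A, beside 8.81 CPM in 2i−L and 445.7 CPM in TSCs, with a log2 ratio of 2.98 (2.87 to 3.10). Id3 was at 101.2 CPM in 2iJ+B−A versus 16.9 CPM in 2iJ, 8.06 CPM in 2i−L and 11.1 CPM in TSCs, with a log2 ratio of 2.54 (2.42 to 2.67). Id1 and Id3 were thus highest in 2iJ+B−A among the 4 samples, whereas Id2 was highest in TSCs. Counts of Id2 are uncertain, because over 40% of its transcript has a match elsewhere in the genome, with 83.9% identical bases. The fourth Id gene, Id4, had a log2 ratio of 0.47, below the 2‐fold limit.

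Among the feedback genes, the inhibitory Smad6 was at 3.79 CPM in 2iJ against 15.9 CPM in 2iJ+B−A, beside 5.68 CPM in 2i−L and 50.7 CPM in TSCs, with a log2 ratio of 1.93 (1.69 to 2.19). The other inhibitory Smad, Smad7, which answers to TGF‐β and Activin as well as BMP, had a log2 ratio of −0.15 (−0.26 to −0.05). Smad9, a receptor Smad that damps the pathway when abundant, was at 5.08 CPM in 2iJ+B−A versus 0.903 CPM in 2iJ, 0.301 CPM in 2i−L and 0.228 CPM in TSCs, with a log2 ratio of 1.99 (1.597 to 2.37). Its counts in 2iJ+B−A were above those in each of the other 3 samples. The pseudoreceptor Bambi and the bHLH factor Atoh8 had log2 ratios of 1.23 and 1.96, and Atoh8 had 3 counts in 2iJ (interval of its ratio 1.52 to 2.18). The extracellular antagonist Nog was just under the limit with a log2 ratio of 0.94. Fst and Twsg1, which bind Activin and BMP outside the cell, had log2 ratios of −0.38 and 0.02, and Bmper, Chrd and Grem1 were under 1 CPM in both samples.

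Of the 8 BMP family ligands in the list, 5 were higher, while most receptors and Smads differed by less than 2‐fold. Over the 15 compared ligands, receptors and Smads, these 5 ligands were at least 2‐fold higher and 1 receptor was at least 2‐fold lower. These shares are 33.33% and 6.667%, beside 6.07% and 3.35% over all compared genes. Of the other ligands, Bmp7 had a log2 ratio of 0.70 (0.49 to 0.92), and Bmp5 and Bmp6 were under 1 CPM in both samples. With a pseudocount of 2 CPM the higher members were 3, and among genes with at least 5 CPM they were 2. Bmp4 itself was at 5.47 CPM in 2iJ against 17.5 CPM in 2iJ+B−A, beside 5.50 CPM in 2i−L and 25.6 CPM in TSCs, with a log2 ratio of 1.59 (1.37 to 1.82). Bmp8b, which acts with Bmp4 in the extraembryonic ectoderm, was at 16.5 CPM in 2iJ+B−A versus 2.97 CPM in 2iJ, 2.05 CPM in 2i−L and 117.3 CPM in TSCs, with a log2 ratio of 2.29 (2.02 to 2.56). Both were lower in 2iJ and 2i−L than in 2iJ+B−A and were highest in TSCs. The log2 ratios of Bmp2, Gdf6 and Bmp8a were 1.64, 1.68 and 1.31, and Bmp2 and Gdf6 were under 1 CPM in 2iJ. The type I receptor Bmpr1b went the other way, at 6.67 CPM in 2iJ against 0.985 CPM in 2iJ+B−A, beside 3.88 CPM in 2i−L and 0.057 CPM in TSCs, with a log2 ratio of −2.27 (−2.63 to −1.90). Its relative Bmpr1a had 0.47, Bmpr2 had −0.50 and Acvr1 had −0.55, and the receptor Smads Smad1 and Smad5 had 0.49 and −0.38.

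Many transcription factors listed here as BMP‐induced were higher, many of them from under 1 CPM in 2iJ. Like the other lists, this list was chosen with earlier results of these data known. Its counts therefore describe the members and cannot serve as a test of a BMP response. Of the 32 listed, 9 were under 1 CPM in both samples. Of 23 compared homeobox, GATA, T‐box, HAND and AP‐2 factors, 21 were at least 2‐fold higher and 0 at least 2‐fold lower, with a median log2 ratio of 1.65. The count depends on the filter, since 11 of the 21, among them Irx4, Dlx2, Dlx5, Dlx6, Irx1, Irx5, Isl1 and Pitx1, were under 1 CPM in 2iJ and were compared only through 2iJ+B−A. Of the 12 members with at least 1 CPM in 2iJ, 10 were higher, beside 4.4% over all genes so kept. The number of higher members was 12 among genes with at least 5 CPM and 13 with a pseudocount of 2 CPM. Hand1 was at 103.5 CPM in 2iJ+B−A versus 1.31 CPM in 2iJ, 1.62 CPM in 2i−L and 382.8 CPM in TSCs. Irx4, an Iroquois homeobox gene of the heart ventricle, was at 0.291 CPM in 2iJ against 17.4 CPM in 2iJ+B−A, beside 0.301 CPM in 2i−L and 45.8 CPM in TSCs, with a log2 ratio of 4.50 (4.09 to 4.81). Gata2, a zinc finger factor of trophoblast and blood progenitors, was at 236.4 CPM in 2iJ+B−A versus 23.1 CPM in 2iJ, 9.92 CPM in 2i−L and 84.3 CPM in TSCs, with a log2 ratio of 3.33 (3.23 to 3.43). Hand1 and Irx4 in 2iJ+B−A thus lay between 2iJ and TSCs, and Gata2 lay above TSCs.

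The Dlx, Msx and Irx families of homeobox genes each had more than 1 higher member. Of the Dlx genes, which pattern the face, limb and placenta, Dlx3 was at 1.08 CPM in 2iJ against 18.5 CPM in 2iJ+B−A, beside 1.53 CPM in 2i−L and 28.3 CPM in TSCs, with a log2 ratio of 3.59 (3.24 to 3.93). Dlx2, Dlx5 and Dlx6 had log2 ratios of 2.49, 1.65 and 1.26. Msx1 and Msx2, repressors at sites of BMP signaling, had 1.87 and 2.07, and Msx2 was at 76.6 CPM in 2iJ+B−A versus 17.9 CPM in 2iJ, 9.80 CPM in 2i−L and 28.7 CPM in TSCs. Irx3, Irx1 and Irx5 had 2.44, 1.44 and 1.13. Gata6 and Gata3 had 2.57 and 1.31, and Gata4 had 1.01, at the limit. Of the T‐box genes, Tbx20, Tbx2 and Tbx3 had 2.47, 1.65 and 1.12, and Tbx4 had −0.84. Tfap2a, an AP‐2 factor of surface ectoderm and neural crest, had 1.43, whereas Tfap2c, the AP‐2 factor shared by trophoblast and germ cells, had −0.32 and is uncertain because part of its transcript matched elsewhere. Pitx1, which had 2 counts in 2iJ and 60 in 2iJ+B−A, had a log2 ratio of 1.91 (1.49 to 2.08).

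**Figure D2:**
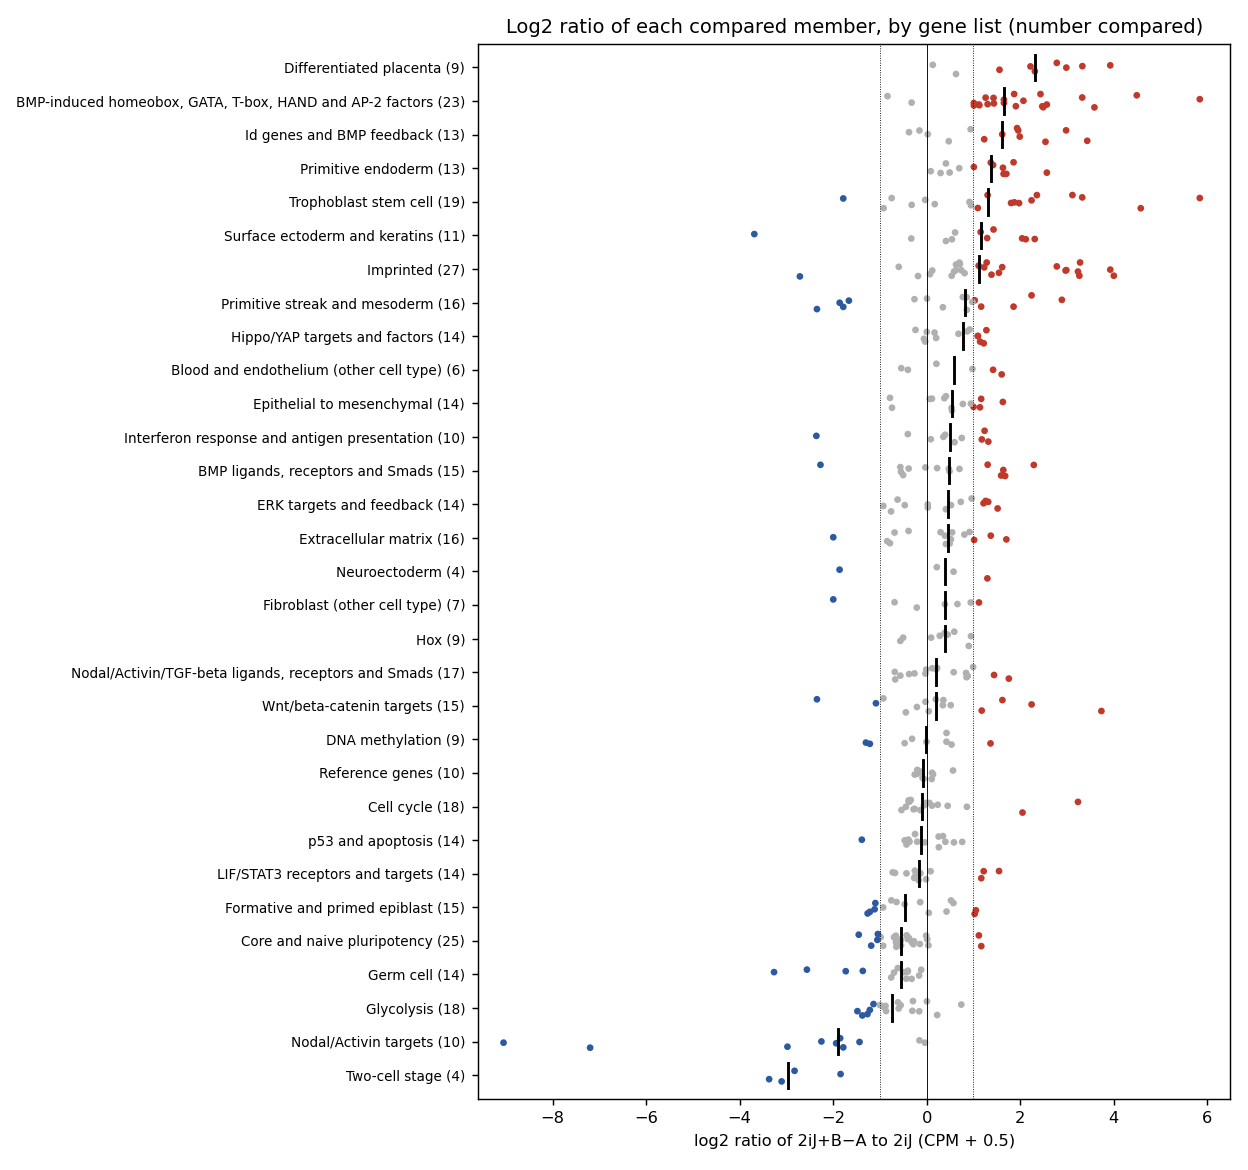
Log2 ratio of 2iJ+B−A over 2iJ (x axis, CPM + 0.5) of each compared gene of the 31 gene lists (y axis, with the number compared), in red or blue where at least 2‐fold higher or lower, with the list median as a bar and dotted lines at 2‐fold. The compared placental genes have a median of 2.32, the BMP‐induced factors 1.65 and the Nodal/Activin targets −1.89.

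Most compared targets of Nodal and Activin were lower. Of 10 compared members of 15, 8 were at least 2‐fold lower and 0 at least 2‐fold higher, with a median log2 ratio of −1.89, beside 3.35% lower over all compared genes. Lefty1 and Lefty2 were under 1 CPM in 2iJ+B−A, and of the 8 members with at least 1 CPM there, 6 were lower, beside 2.4% over all genes so kept. Lefty2 (NCBIM37 chromosome 1, 182823239 to 182829234) had 9088 counts in 2iJ against 0 in 2iJ+B−A, beside 14296 in 2i−L and 16 in TSCs. Set against the 3 counts taken as detectable, it was at least 3314‐fold lower in 2iJ+B−A than in 2iJ. Its neighbor Lefty1 had 4387 counts in 2iJ against 14 in 2iJ+B−A, beside 6087 in 2i−L and 15 in TSCs, a log2 ratio of −7.20 (−7.51 to −6.83). Per kilobase of exon, Lefty2 and Lefty1 were at 101.4 and 72.7 RPKM in 2iJ. Lefty1 is uncertain, because 71.3% of its transcript matched another place in the genome with 91.4% identical bases.

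The ligand Nodal was at 125.4 CPM in 2iJ against 46.1 CPM in 2iJ+B−A, beside 89.4 CPM in 2i−L and 6.69 CPM in TSCs, with a log2 ratio of −1.44 (−1.52 to −1.35). Tdgf1 (Cripto), the coreceptor that Nodal needs, was at 57.0 CPM in 2iJ+B−A versus 206.8 CPM in 2iJ, 360.8 CPM in 2i−L and 0.342 CPM in TSCs, with a log2 ratio of −1.85 (−1.92 to −1.78), and its counts are uncertain for the same reason. Both genes lay well above the TSC level. The feedback genes Skil, a Smad corepressor, and Pmepa1, which sequesters Smads at membranes, had log2 ratios of −2.25 (−2.33 to −2.17) and −1.94 (−2.19 to −1.68). Skil was at 38.1 CPM in 2iJ+B−A versus 183.4 CPM in 2iJ, 192.1 CPM in 2i−L and 98.7 CPM in TSCs. Eomes, a T‐box factor of both streak and trophoblast, was at 10.7 CPM in 2iJ against 2.74 CPM in 2iJ+B−A, beside 12.4 CPM in 2i−L and 178.9 CPM in TSCs, with a log2 ratio of −1.78 (−2.07 to −1.50). For Skil and Eomes, 2iJ+B−A was thus the lowest of the 4 samples. The exceptions among the 10 were Tgif1 and Smad7, with log2 ratios of −0.04 and −0.15. The 5 targets not compared, Cer1, Gsc, Mixl1, Foxa2 and Lhx1, were under 1 CPM in both samples. Of these 5, Gsc went against the direction of the compared targets, from 1 count to 37 (log2 ratio 1.49). It missed the filter narrowly, at 0.985 CPM after treatment. Foxa2 was at 0.42, and Cer1, Mixl1 and Lhx1 were at −0.01, −0.33 and −0.19.

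The machinery of the Nodal, Activin and TGF‐β pathway differed less than its targets. Of 17 compared ligands, receptors, Smads and processing enzymes, 2 were at least 2‐fold higher (11.76%, beside 6.07% over all compared genes). At least 2‐fold lower were 0, beside 3.35%, and the median log2 ratio was 0.21. The higher members were Inhbb, a subunit of Activin B, at 1.76, and the TGF‐β receptor Tgfbr2, at 1.44. The signal transducers Smad2, Smad3 and Smad4 had log2 ratios of 0.12, 0.58 and 0.23, and the Activin receptor Acvr1b had −0.01. Furin and Pcsk6 (PACE4), convertases that cut the Nodal precursor, had 0.85 and 0.84, just under the limit.

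**Figure D3:**
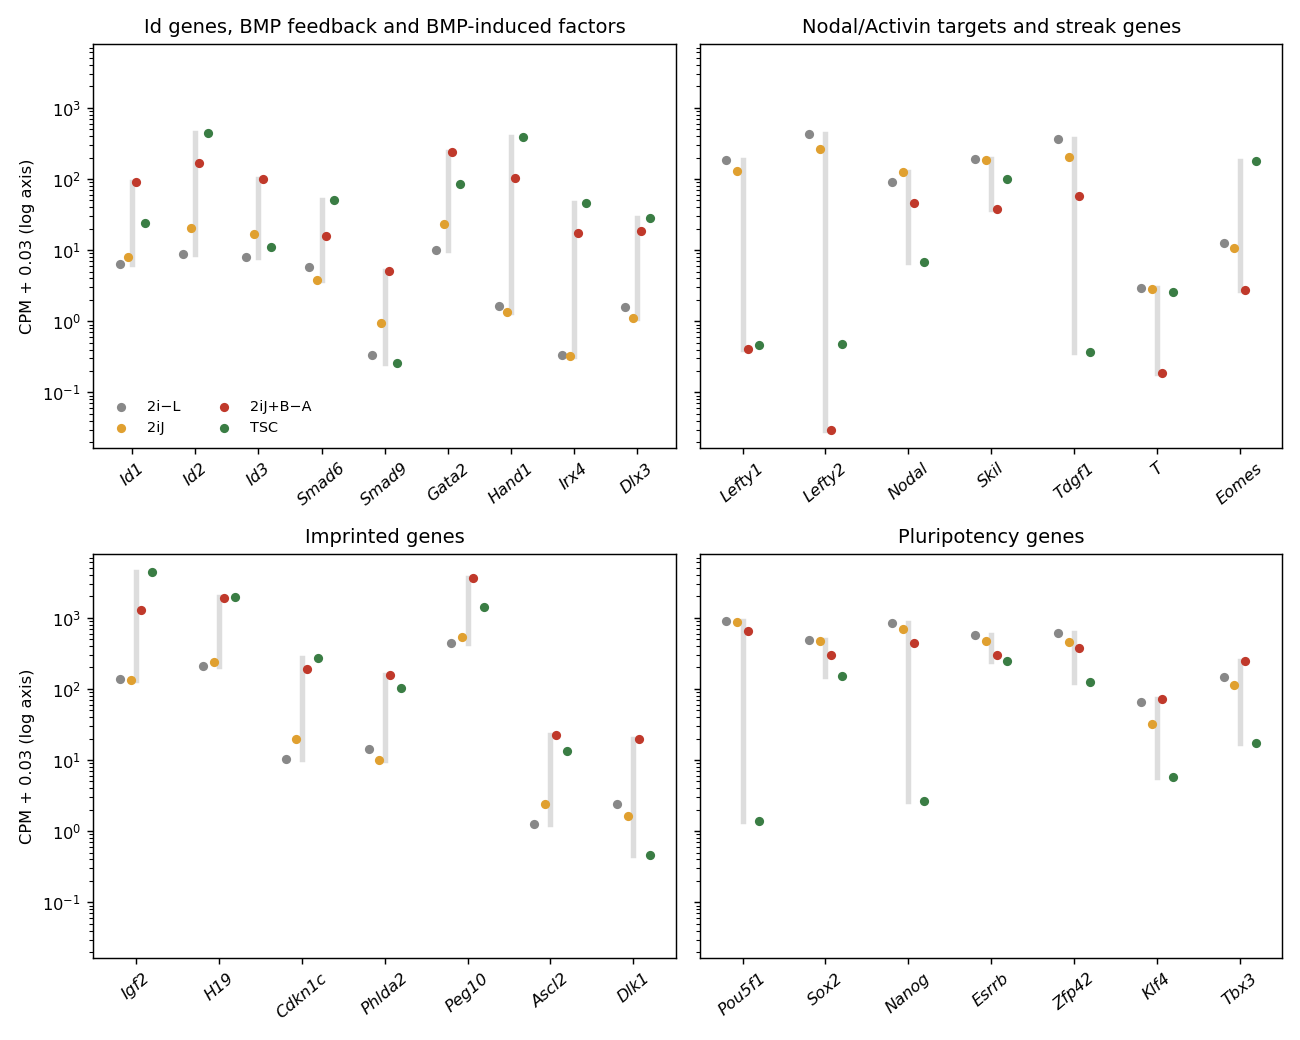
Level in CPM + 0.03 (log y axis) of selected list genes (x axis) in 2i−L, 2iJ, 2iJ+B−A and TSCs, 1 point per sample, with a gray bar over their range. In 2iJ+B−A, Id1, Id3 and Gata2 are the highest of the 4 samples, Lefty2 (0 counts) the lowest, and the pluripotency genes stay within 2‐fold of 2iJ except Klf4 and Tbx3, which are higher.

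Among trophoblast stem cell genes, higher members outnumbered those within 2‐fold. Of 19 compared members, 11 were at least 2‐fold higher (57.89%) and 1 at least 2‐fold lower (5.263%), beside 6.07% and 3.35% over all compared genes. The median log2 ratio was 1.31, and 3 of the 11, Hand1, Gata2 and Gata3, are also in the list of BMP‐induced factors. Esx1, an X‐linked homeobox gene of the placenta, was at 72.8 CPM in 2iJ+B−A versus 2.56 CPM in 2iJ, 2.68 CPM in 2i−L and 12.7 CPM in TSCs, with a log2 ratio of 4.58 (4.32 to 4.85), and so lay above TSCs. The trophectoderm factor Cdx2 had 230 counts in 2iJ and 1263 in 2iJ+B−A (log2 ratio 2.25). The X‐linked homeobox genes Rhox6 and Rhox9 had 3.12 and 2.36, but both are uncertain because near copies exist. The ligand Wnt7b, the factor Sox21 and the Hippo effector Tead4 had 1.98, 1.81 and 1.10. Eomes was the lower member. The FGF receptor Fgfr2, P‐cadherin (Cdh3), Tfap2c, Elf3 and Ets2 lay within 2‐fold, at −0.92, −0.75, −0.32, −0.03 and 0.17.

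Genes of the differentiated placenta were in part higher and in part near 0 counts. Of 18 listed, 9 were under 1 CPM in both samples. Of the 9 compared members, 7 were at least 2‐fold higher (77.78%, beside 6.07% over all compared genes) and 0 at least 2‐fold lower, with a median log2 ratio of 2.32. Of the 7 with at least 1 CPM in 2iJ, 5 were higher, beside 4.4% over all genes so kept. Plac1, an X‐linked surface protein of trophoblast, was at 0.961 CPM in 2iJ against 14.2 CPM in 2iJ+B−A, beside 0.211 CPM in 2i−L and 24.4 CPM in TSCs, with a log2 ratio of 3.33 (2.97 to 3.68). Gcm1, the regulator of syncytiotrophoblast, was at 28.0 CPM in 2iJ+B−A versus 5.62 CPM in 2iJ, 1.44 CPM in 2i−L and 0.399 CPM in TSCs, with a log2 ratio of 2.22 (2.01 to 2.43), and was highest in 2iJ+B−A, although its transcript also matched elsewhere. The fusion protein Synb and the X‐linked kinase Nrk had 1.56 and 2.32. The other higher members, Phlda2, Ascl2 and Peg10, are imprinted and are described below. Hormones and proteases of the mature placenta, Prl3d1, Prl3b1, Prl2c2, Tpbpa, Ctsq, Cts7, Psg17 and Hsd3b6, had between 0 and 1 counts in 2iJ+B−A. Of these, Prl3d1, Prl2c2, Tpbpa, Psg17 and Hsd3b6 also matched elsewhere, so their low counts are uncertain.

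Imprinted genes, expressed from the copy of 1 parent and prominent in the placenta, contained the largest gains in counts. Of 27 compared members, 14 were at least 2‐fold higher (51.85%) and 1 at least 2‐fold lower (3.704%), with a median log2 ratio of 1.11. The shares over all compared genes were 6.07% and 3.35%. Of the 14, 2 were under 1 CPM in 2iJ. The summed level of all 28 imprinted genes found, higher or not, went to 8843 CPM in 2iJ+B−A from 2148 in 2iJ, beside 1930 CPM in 2i−L and 11750 CPM in TSCs. Of the CPM gained by all 2‐fold higher genes, 28.3% lay in Peg10, H19 and Igf2. Peg10, derived from a retrotransposon and needed for the placenta, had 18238 counts in 2iJ against 137630 in 2iJ+B−A, beside 14533 in 2i−L and 50385 in TSCs, and a log2 ratio of 2.79 (2.76 to 2.81). It was highest in 2iJ+B−A, and its neighbor on chromosome 6, Sgce, had a log2 ratio of 1.62.

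Several of these genes lie together on distal chromosome 7, in a stretch that holds 2 imprinted domains. The fetal growth factor Igf2 (NCBIM37, 149836673 to 149852721, minus strand) was at 134.2 CPM in 2iJ against 1297 CPM in 2iJ+B−A, beside 139.8 CPM in 2i−L and 4354 CPM in TSCs, with a log2 ratio of 3.27 (3.22 to 3.31). The noncoding RNA H19 (149761434 to 149764048) had 1867 CPM in 2iJ+B−A versus 237.3 CPM in 2iJ, 211.4 CPM in 2i−L and 1939 CPM in TSCs, with a log2 ratio of 2.97 (2.94 to 3.01). Igf2 and H19, which are made from opposite parental copies, were thus both higher in 2iJ+B−A. The growth inhibitor Cdkn1c (p57) was at 19.7 CPM in 2iJ against 189.7 CPM in 2iJ+B−A, beside 10.2 CPM in 2i−L and 274.5 CPM in TSCs, with a log2 ratio of 3.24 (3.13 to 3.35). Phlda2, which limits placental growth, was at 157.0 CPM in 2iJ+B−A versus 9.84 CPM in 2iJ, 14.4 CPM in 2i−L and 102.5 CPM in TSCs, with a log2 ratio of 3.93 (3.78 to 4.08). Ascl2, a bHLH factor of the spongiotrophoblast, and the transporter Slc22a18 had 2.99 and 1.29. Igf2as, transcribed opposite to Igf2, went from 131 to 2583 counts, a log2 ratio of 4.01. Over 996 genes with no gene opposite, a median of 0.285% of the counts in 2iJ+B−A fell on the opposite strand, beside 48741 counts of Igf2, and the part of such counts in Igf2as was not tested. From 500 kb before to 1500 kb after H19, a window set after these values were seen, 23 genes were compared. All 7 of the imprinted list were higher, and of the other 16, 3 were higher and 0 lower with a median log2 ratio of 0.23. The list does not hold every imprinted gene, and imprinting of the other 16 was not examined. They are therefore not a set of nonimprinted neighbors. These 3, Tnnt3 at 3.34, Dusp8 at 2.21 and Osbpl5 at 1.08, were picked out after their values were seen.

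**Figure D4:**
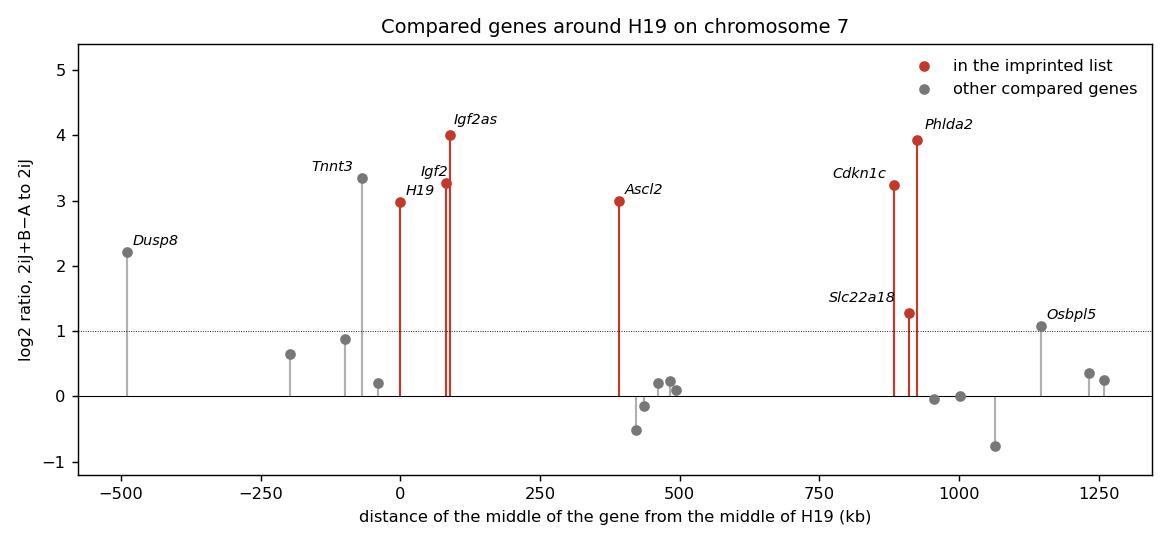
Log2 ratio of 2iJ+B−A over 2iJ (y axis) of the 23 compared genes around H19 on chromosome 7, against the distance in kb from the middle of H19 (x axis), with the 7 genes of the imprinted list in red and the other 16 in gray. The dotted line marks 2‐fold, which all 7 red genes and Tnnt3, Dusp8 and Osbpl5 exceed. Gray genes are those not in the list, and their imprinting was not examined.

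In other imprinted clusters, neighbors differed in their ratios. On chromosome 12, Dlk1, a Notch‐like membrane protein, was at 1.602 CPM in 2iJ against 19.96 CPM in 2iJ+B−A, beside 2.37 CPM in 2i−L and 0.427 CPM in TSCs, with a log2 ratio of 3.28 (2.97 to 3.60), whereas the noncoding RNAs Meg3, Rian and Mirg beside it had 0.54, 0.70 and 0.59. On chromosome 7, Peg3 had a log2 ratio of 1.11 and its neighbor Usp29 one of −2.71 (−2.997 to −2.43), from 592 to 83 counts. The growth inhibitor Grb10 had 1.39, Nnat, which also matched elsewhere, had 1.55 and the antisense RNA Airn had 1.23. Igf2r, Snrpn, Plagl1 and Zim1 lay within 2‐fold, at 0.12, −0.18, 0.07 and 0.63, and Snrpn also matched elsewhere.

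Most core and naive pluripotency genes lay within 2‐fold. Of 25 compared members, 19 did so and 21 had a ratio below 0, with a median log2 ratio of −0.55. At least 2‐fold higher were 2 (8.0%, beside 6.07% over all compared genes), and at least 2‐fold lower 4 (16.0%, beside 3.35%). Sox2 was at 295.8 CPM in 2iJ+B−A versus 463.6 CPM in 2iJ, 484.3 CPM in 2i−L and 153.6 CPM in TSCs, with a log2 ratio of −0.65 (−0.68 to −0.61). The log2 ratio was −0.43 for Pou5f1, −0.66 for Nanog and Esrrb, −0.28 for Zfp42 (Rex1), −0.27 for Klf2 and 0.04 for Sall4, and the counts of Pou5f1, Nanog and Zfp42 are uncertain because their transcripts matched elsewhere. The lower genes included Tcl1, an Akt cofactor, at −1.45, the chromatin factor Dppa2 at −1.19 and Dppa5a at −1.05. The higher genes were Klf4 at 1.17 and Tbx3 at 1.12. Of these, Dppa2, Dppa5a and Klf4 are uncertain too, with 91.7%, 98.2% and 42.6% of the transcript matched elsewhere. Against 2i−L, where Klf4 was at 66.2 CPM beside 73.1 CPM in 2iJ+B−A, its log2 ratio was 0.14.

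Genes of the formative and primed epiblast differed in both directions, with a median log2 ratio of −0.47 over 15 compared genes. At least 2‐fold higher were 2 (13.33%) and lower 4 (26.67%), beside 6.07% and 3.35% over all compared genes. The lower genes were the zinc finger factors Zic5 and Zic2, the DNA methyltransferase Dnmt3a and Sox3, from −1.26 to −1.10, and the higher genes were Foxd3 and Sox11, at 1.05 and 1.03. Zic5 also matched elsewhere. The homeobox factor Otx2 had −0.75. Fgf5, the usual marker of the primed epiblast, was under 1 CPM in both samples. Of the neuroectoderm list 4 genes were compared, with 25.0% higher and 25.0% lower, beside 6.07% and 3.35% over all compared genes. The POU factor Pou3f2 was higher, at 1.30, and Pax6, the eye and brain homeobox factor, lower, at −1.86. Each was under 1 CPM in 1 of the samples.

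Prdm1 and a few other germ cell genes were lower, as were the compared genes of the 2‐cell stage. In the embryo BMP4 induces primordial germ cells through Prdm1 (Blimp1). Prdm1 was at 53.6 CPM in 2iJ against 5.14 CPM in 2iJ+B−A, beside 48.6 CPM in 2i−L and 1.99 CPM in TSCs, with a log2 ratio of −3.26 (−3.47 to −3.06). Of 14 compared germ cell genes, 4 were at least 2‐fold lower (28.57%, beside 3.35% over all compared genes), 0 at least 2‐fold higher and 10 within 2‐fold, and 14 had a ratio below 0. Within 2‐fold lay Alpl, the alkaline phosphatase of germ and stem cells, at −0.12, Mael, of the piRNA pathway, at −0.16 and the germ cell regulators Dazl and Prdm14 at −0.41 and −0.62. The others past the limit were Dnd1 at −2.56, Nanos3 at −1.73, both RNA‐binding regulators of germ cells, and the membrane protein Ifitm3 at −1.37, and of these Dnd1 and Ifitm3 also matched elsewhere. The 4 compared genes of the 2‐cell stage were at least 2‐fold lower, all under 1 CPM in 2iJ+B−A and so compared only through 2iJ. Zscan4d, a zinc finger gene expressed in brief bursts in mESCs, had 434 counts in 2iJ against 29 in 2iJ+B−A, beside 134 in 2i−L and 6 in TSCs, a log2 ratio of −3.37 (−3.71 to −3.004). Zscan4c, Zscan4f and Usp17la had −3.10, −2.83 and −1.84. The Zscan4 genes are near copies of each other, and Usp17la has near copies too, so their counts cannot be assigned to single genes with certainty.

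Genes of the primitive streak and mesoderm differed in both directions. Of 16 compared members of 26, 5 were at least 2‐fold higher (31.25%), 4 at least 2‐fold lower (25.0%) and 7 within 2‐fold, with a median log2 ratio of 0.82. The shares over all compared genes were 6.07% and 3.35%. The lower genes were T (Brachyury), Wnt3, Eomes and Fgf8, which act at the start of the streak. T was at 0.160 CPM in 2iJ+B−A versus 2.85 CPM in 2iJ, 2.95 CPM in 2i−L and 2.51 CPM in TSCs, with a log2 ratio of −2.35 (−2.63 to −1.92). Wnt3 was at 11.6 CPM in 2iJ against 2.82 CPM in 2iJ+B−A, beside 6.71 CPM in 2i−L and 1.97 CPM in TSCs, with a log2 ratio of −1.86 (−2.14 to −1.59). The higher genes were Foxf1a and Pdgfra, found in extraembryonic and lateral mesoderm, with Cdx2, Snai2 and Wnt5a. Foxf1a had 2 counts in 2iJ against 137 in 2iJ+B−A, beside 1 in 2i−L and 59 in TSCs, a log2 ratio of 2.89 (2.51 to 3.05). The members within 2‐fold included the homeobox genes Evx1, of the posterior streak, Cdx4 and Cdx1, at 0.86, 0.86 and 0.35, and Wnt5b and Rspo3, at 0.01 and −0.26. Foxf1a was under 1 CPM in 2iJ, and T and Fgf8 were under 1 CPM in 2iJ+B−A. The number of higher members was 3 with a pseudocount of 2 CPM or with at least 5 CPM, and 8 with a pseudocount of 0.1 CPM.

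Primitive endoderm genes were higher or within 2‐fold. Of 13 compared members, 8 were at least 2‐fold higher (61.54%, beside 6.07% over all compared genes) and 0 at least 2‐fold lower. The median log2 ratio was 1.37, and all 13 had a ratio above 0. Of the 8, 3 were under 1 CPM in 2iJ, and of the 10 members with at least 1 CPM there, 5 were higher. Gata6, whose product drives this lineage, had 26 counts in 2iJ and 262 in 2iJ+B−A. The factor Sox17 had a log2 ratio of 1.63, and the basement membrane collagens Col4a2 and Col4a1 had 1.71 and 1.37. Col4a1 was at 228.3 CPM in 2iJ+B−A versus 87.8 CPM in 2iJ, 68.6 CPM in 2i−L and 1099 CPM in TSCs, and so is also abundant in trophoblast. The late markers Afp, Ttr and Amn were under 1 CPM in both samples, and Hnf4a had 0.09. The 8 higher members became 4 with a pseudocount of 2 CPM or with at least 5 CPM.

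Several keratins of simple epithelia and 3 claudins were higher, while other junction genes lay within 2‐fold. Of 11 compared genes of surface ectoderm and keratins, 6 were at least 2‐fold higher (54.55%) and 1 at least 2‐fold lower (9.091%), with a median log2 ratio of 1.16. The shares over all compared genes were 6.07% and 3.35%. Krt8 was at 133.7 CPM in 2iJ against 552.6 CPM in 2iJ+B−A, beside 92.3 CPM in 2i−L and 883.5 CPM in TSCs, with a log2 ratio of 2.04 (2.00 to 2.09), and its partner Krt18 had 2.31 (2.26 to 2.37). Both have near copies in the genome and are uncertain, whereas Krt7, at 2.12, and Krt19, at 1.16, did not match elsewhere. Krt42 was lower, at 0.319 CPM in 2iJ+B−A versus 10.1 CPM in 2iJ, 23.3 CPM in 2i−L and 0.598 CPM in TSCs, with a log2 ratio of −3.69 (−4.01 to −3.29), and it also matched elsewhere. The basal keratins Krt5, Krt14 and Krt17 were under 1 CPM in both samples, and they also matched elsewhere. Of 14 compared genes of epithelial and mesenchymal state, 4 were at least 2‐fold higher (28.57%, beside 6.07% over all compared genes) and 0 were lower. The 4 were the claudins Cldn7, Cldn3 and Cldn4 at 1.63, 1.14 and 1.00 and the mesenchymal repressor Snai2 at 1.17. Claudin Cldn4 was at the limit. The junction genes Ocln, Cdh1 (E‐cadherin), Cldn6, Epcam and Tjp1 lay within 2‐fold, at 0.95, 0.54, 0.54, 0.41 and 0.11, and the mesenchymal genes Vim and Fn1 had −0.74 and −0.78. Of 16 compared extracellular matrix genes, 3 were higher (18.75%, beside 6.07% over all compared genes), Col4a1, Col4a2 and Col5a1, and 1 was lower, Col1a1, at −1.997.

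In the lists of other pathways, most compared members lay within 2‐fold. Beside 6.07% higher and 3.35% lower over all compared genes, the share higher was 26.67% for the Wnt list, 28.57% for the ERK list, 21.43% for the LIF list and 35.71% for the Hippo list, each of 14 or 15 genes and each with 1 higher member under 1 CPM in 2iJ. Under the GSK3 inhibitor present in both media, 4 of 15 compared Wnt/β‐catenin targets were at least 2‐fold higher and 2 at least 2‐fold lower, with a median log2 ratio of 0.20. The R‐spondin receptor Lgr5 was at 0.582 CPM in 2iJ against 13.9 CPM in 2iJ+B−A, beside 0.451 CPM in 2i−L and 0.0854 CPM in TSCs, with a log2 ratio of 3.74 (3.35 to 4.09), and the secreted inhibitor Dkk1 and the feedback genes Nkd1 and Apcdd1 had 2.25, 1.62 and 1.18. The general targets Axin2 and Lef1 had 0.20 and 0.05, and the lower genes were T and the zinc finger factor Sp5, with −1.08 for Sp5. Under the MEK inhibitor present in both media, 4 of 14 compared ERK targets were higher, Myc at 1.52, Spry2 at 1.32, Spry4 at 1.26 and Fos at 1.22, while Dusp6 had 0.41.

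Of 14 compared LIF/STAT3 receptors and targets, 3 were at least 2‐fold higher and 0 at least 2‐fold lower, with a median log2 ratio of −0.16. The feedback inhibitor Socs3 was at 3.86 CPM in 2iJ+B−A versus 0.990 CPM in 2iJ, 4.90 CPM in 2i−L and 40.8 CPM in TSCs. Its log2 ratio was 1.55 (1.15 to 1.94) against 2iJ and −0.31 against 2i−L, so its direction turned with the reference. The others were Junb and Klf4, and Stat3 itself had −0.25. Of 14 compared Hippo/YAP genes, 5 were higher, Cyr61 at 1.28, Ankrd1 at 1.22, Lats2 at 1.15, the YAP relative Wwtr1 (Taz) at 1.10 and Tead4, and 0 were lower. The classic target Ctgf had −0.24, and the number higher was 3 with a pseudocount of 2 CPM.

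Glycolysis was the metabolic list examined, and its members were lower or within 2‐fold. Of 18 compared genes, 5 were at least 2‐fold lower (27.78%, beside 3.35% over all compared genes) and 0 at least 2‐fold higher. A ratio below 0 was found for 15, with a median log2 ratio of −0.74. The phosphofructokinases Pfkl and Pfkp, which set the pace of the pathway, had −1.48 (−1.55 to −1.41) and −1.38 (−1.45 to −1.30). Pfkl was at 178.3 CPM in 2iJ against 63.6 CPM in 2iJ+B−A, beside 239.6 CPM in 2i−L and 296.6 CPM in TSCs, the lowest level being in 2iJ+B−A. Pdk1, which keeps pyruvate out of the mitochondria, had −1.27, and Ldhb and Eno1 had −1.22 and −1.14, but Ldhb and Eno1 have processed copies elsewhere and are uncertain. The glucose transporter Slc2a1 was at 410.9 CPM in 2iJ+B−A versus 245.4 CPM in 2iJ, 406.5 CPM in 2i−L and 748.6 CPM in TSCs, with a log2 ratio of 0.74 (0.70 to 0.78), and Slc2a3 had 0.01. Against 2i−L in place of 2iJ, 13 of the 18 were at least 2‐fold lower, beside 638 of all 13482 genes compared that way.

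Cell cycle genes were little different except for a pair of regulators. Of 18 compared members, 2 were at least 2‐fold higher (11.11%, beside 6.07% over all compared genes), Cdkn1c and the cyclin Ccnd2, and 0 at least 2‐fold lower, with a median log2 ratio of −0.10. Ccnd2 was at 5.18 CPM in 2iJ against 23.1 CPM in 2iJ+B−A, beside 2.53 CPM in 2i−L and 0.826 CPM in TSCs, with a log2 ratio of 2.05 (1.83 to 2.27), and Ccnd1 had −0.44. Of 14 compared genes of the p53 response, 1 was lower (7.143%, beside 3.35% over all compared genes), the proapoptotic Pmaip1 (Noxa), at −1.39, and 0 were higher. In lists of this size, counts of 1 or 2 members are close to what the shares over all compared genes amount to. Of 9 compared DNA methylation genes, 1 was at least 2‐fold higher (11.11%) and 2 at least 2‐fold lower (22.22%). The shares over all compared genes were 6.07% and 3.35%. The oxidase Tet1 was at 154.9 CPM in 2iJ+B−A versus 381.9 CPM in 2iJ, 418.3 CPM in 2i−L and 104.9 CPM in TSCs. Its log2 ratio was −1.30 (−1.34 to −1.25), while its relative Tet3 had 1.37 (1.18 to 1.55). Dnmt3a was lower, at −1.21, and Dnmt1 and Dnmt3b, the latter uncertain, had −0.003 and 0.43. Of 39 Hox genes, 9 were compared and 0 were past 2‐fold in either direction, beside 9.42% over all compared genes. The highest ratio of the 9 was 0.95 for Hoxd13. The other 30 were under 1 CPM in both samples, so this count does not cover them. Among the 30, Hoxb6 had 1 count in 2iJ and 37 in 2iJ+B−A, and Hoxb8 had 0 and 19. Their log2 ratios were 1.49 and 1.01, and the lowest of the 30 was −0.42 for Hoxc9. Of 10 compared interferon and antigen presentation genes, 3 were higher (30.0%) and 1 lower (10.0%), beside 6.07% and 3.35% over all compared genes. The class I genes H2-D1 and H2-K1, both uncertain, and Bst2 were higher, at 1.32, 1.24 and 1.18, and the factor Irf1 was lower, at −2.36.

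Some of the genes with the largest ratios are in none of these lists. Nxf7, an X‐linked member of the RNA export factor family, was at 3.70 CPM in 2iJ against 77.0 CPM in 2iJ+B−A, beside 2.53 CPM in 2i−L and 188.8 CPM in TSCs, with a log2 ratio of 4.21 (3.98 to 4.44). The organic cation transporter Slc22a3 was at 35.5 CPM in 2iJ+B−A versus 2.39 CPM in 2iJ, 1.23 CPM in 2i−L and 0.854 CPM in TSCs, with a log2 ratio of 3.64 (3.37 to 3.92). Nxf7 was highest in TSCs and Slc22a3 in 2iJ+B−A. On the lower side, Nphs1, the slit diaphragm protein nephrin, was at 25.3 CPM in 2iJ against 1.62 CPM in 2iJ+B−A, beside 27.9 CPM in 2i−L and 0.142 CPM in TSCs, with a log2 ratio of −3.60 (−3.90 to −3.30). The ubiquitin ligase Hecw2 went from 1324 to 156 counts, a log2 ratio of −3.07. Igfbpl1 and Chst15 had −3.14 and −2.73, and Mup6 and Gstm3, which belong to families of near copies and are uncertain, had −3.34 and −2.996.

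**Figure D5:**
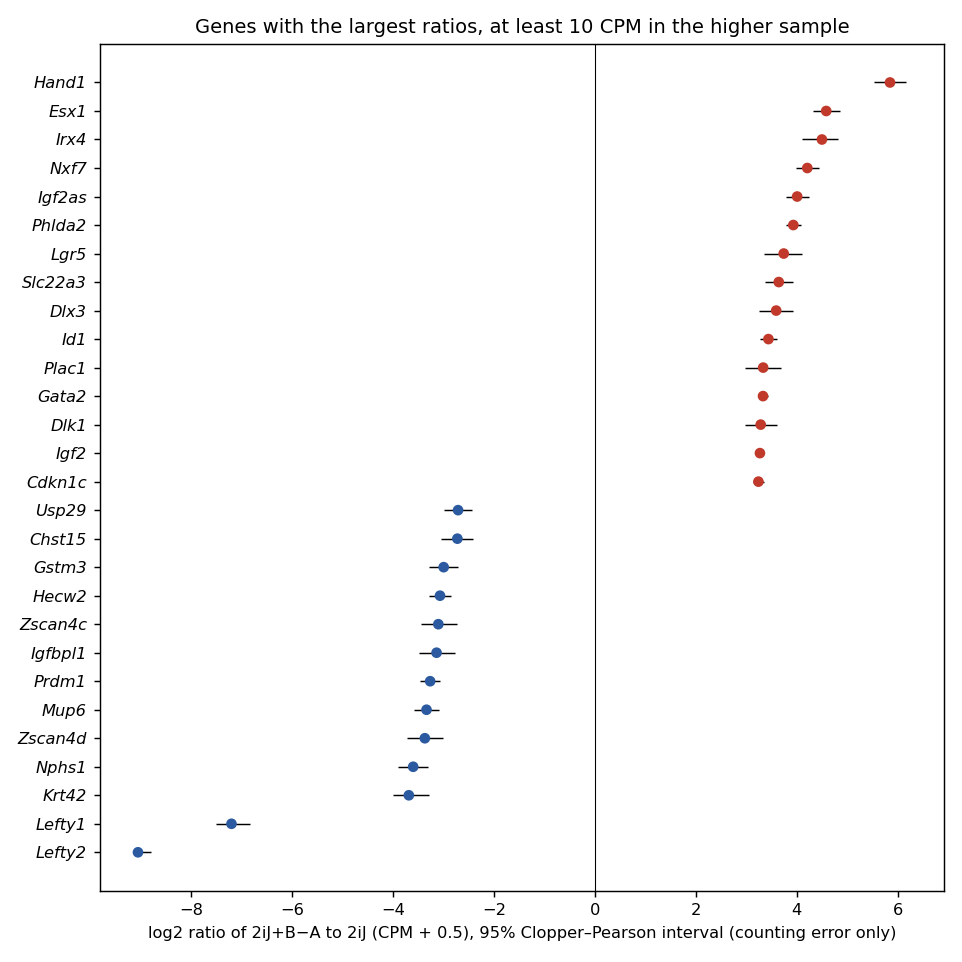
The 15 highest log2 ratios of 2iJ+B−A over 2iJ (x axis, CPM + 0.5) and 13 of the 15 lowest, among genes (y axis) with at least 10 CPM in the higher sample, with 95% Clopper–Pearson intervals that cover counting error only. They run from 5.84 for Hand1 to −7.20 for Lefty1 and to Lefty2, whose point depends on the pseudocount because it had 0 counts in 2iJ+B−A.

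Compared per kilobase of exon, the genes that changed differed widely in level. In 2iJ+B−A, H19 was at 787.0 RPKM, Peg10 at 549.9 RPKM, Igf2 at 236.2 RPKM and Phlda2 at 207.4 RPKM. Id2, Cdkn1c, Id1, Gata2 and Hand1 followed at 130.6, 98.3, 79.0, 70.5 and 51.8 RPKM, and Irx4 was at 6.67 RPKM. The order of ratios was therefore not the order of levels, Irx4 having the third highest ratio and the lowest of these levels.

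Markers of fibroblasts, blood and endothelium, other cells that a culture could hold, were low except for a few genes. Of 10 fibroblast markers, 7 were compared. Of these, Prrx1 was at least 2‐fold higher, at 1.12, and Col1a1 at least 2‐fold lower. Each was 14.29% of the 7, beside 6.07% higher and 3.35% lower over all compared genes. The summed level of the 10 markers was 33.9 CPM in 2iJ+B−A, beside 42.1 in 2iJ, 48.4 in 2i−L and 9.001 in TSCs. Dcn had 21 counts in 2iJ and 11 in 2iJ+B−A, and Lum 3 and 21. Of 12 markers of blood and endothelium, 6 were compared. Gata1 and Runx1 were higher (33.33%, beside 6.07% over all compared genes), at 1.61 and 1.42, both from under 1 CPM in 2iJ. The sums over the 12 markers were 122.4, 151.6, 146.3 and 134.2 CPM in the same order. Most of the sum in the 3 mESC samples was Pecam1, an adhesion protein of endothelium that is also in the pluripotency list, at 100.5 CPM in 2iJ+B−A versus 132.9 CPM in 2iJ, 128.5 CPM in 2i−L and 42.4 CPM in TSCs. The pan‐leukocyte marker Ptprc and the adult globins Hba-a1 and Hbb-b1 had 0 counts in 2iJ and 2iJ+B−A. Both globins have near copies in the genome and are uncertain. Pairs that map to several places were not counted, so these values cannot show that the globins were absent. The part of such cells in the results was not tested.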

How the data were processed

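RNA‐seq of 4 samples, 1 per condition, was analysed. The authors deposited, for each gene, the count of read pairs from STAR, not normalized. According to the submitters' processing notes CASAVA 1.8.2, cutadapt and STAR 2.4.2a were used with NCBIM37. The annotation release is not given in the sources used here. STAR counts only pairs that map to 1 place, and 6.72% to 7.01% mapped to several. Rows that name no gene, which held 16.42% to 17.77% of the pairs, were left out.

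The reverse‐strand count was used, 29.1 to 32.11 times that on the other strand. Counts were scaled with TMM factors (edgeR 4.0.16, R 4.3.3) to CPM. Genes with at least 1 CPM in 2iJ or 2iJ+B−A were kept, and log2 ratios were taken after adding 0.5 CPM. A ratio of at least 2‐fold was the rule for higher and lower, since 1 sample per condition allows no test. RPKM divides CPM by the exon length in kb. GENCODE annotation of NCBIM37 held 37205 of the 37620 identifiers.

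The genes named were the members of 31 gene lists and the 15 highest and 15 lowest ratios among genes with at least 10 CPM. Of the list genes 485 were found and 372 compared, of which 106 were higher and 41 lower, and Rhox5, Sox1, Kcnq1ot1, Tcstv1 and Tcstv3 were not matched. The comparison and the lists were chosen with earlier results of these data known. For 494 named genes, transcripts were mapped against NCBIM37 by minimap2 2.31, and the 73 with over 40% of the transcript matched elsewhere are uncertain. Some genes are not reported here. The calculation was tested on simulated data. Alternatives were the unstranded count, DESeq2 1.42.0 size factors, library totals, other filters, pseudocounts of 0.1 and 2 CPM, intervals wholly beyond 2‐fold, 2i−L as the reference and, added after the data were seen, at least 1 CPM in 2iJ.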

Additional observations from a re-analysis of the deposited data

How the results depend on the processing

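The limits are those of 1 sample per condition. The intervals cover counting error, and variation between cultures was not measured. No paired analysis was possible because each condition has 1 sample, and leaving out a replicate was not possible for the same reason. At 1 CPM, the lowest level kept, a 2‐fold ratio rests on few counts. Main counts were 817 higher and 451 lower genes. These became 517 and 281 with at least 5 CPM, 455 and 256 with a pseudocount of 2 CPM, and 500 and 262 where the interval had to lie wholly beyond 2‐fold, each a stricter rule by construction. The other counts stayed within 1.5 times of the main ones: 823 and 435 with unstranded counts, 806 and 455 with DESeq2 size factors, 893 and 408 with library totals, 816 and 451 with TMM over both samples alone, 851 and 474 without a filter, 990 and 586 with a pseudocount of 0.1 CPM, 1112 and 638 against 2i−L, and 569 and 451 with at least 1 CPM in 2iJ, a filter added after the data were seen. Of all genes past 2‐fold, between 62.8% and 68.6% were higher, beside 64.4% in the main comparison and 55.8% with at least 1 CPM in 2iJ, which drops low genes of 1 direction by construction.

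Among list counts of at least 5, BMP ligands and receptors went from 5 higher to 2 with at least 5 CPM and 3 with a pseudocount of 2 CPM, BMP‐induced factors from 21 to 12 and 13, primitive endoderm from 8 to 4 and 4, and streak and mesoderm from 5 to 3 and 3. With at least 1 CPM in 2iJ, Id and feedback genes went from 8 higher to 5, BMP ligands and receptors from 5 to 3, BMP‐induced factors from 21 to 10 and primitive endoderm from 8 to 5. Streak and mesoderm had 8 with a pseudocount of 0.1 CPM, 3 with intervals beyond 2‐fold and 8 against 2i−L. Hippo/YAP went from 5 to 3 with a pseudocount of 2 CPM and 2 with intervals beyond 2‐fold, and glycolysis from 5 lower to 13 against 2i−L, where the cause was not tested. Of the 381 ratios of single genes, that of Socs3 turned its direction after having passed 2‐fold, at −0.31 against 2i−L. Under the other alternatives run on single ratios 0 did so.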

Other observations

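The share of higher genes differed among chromosomes. Of 506 compared genes on the X chromosome, 10.7% were at least 2‐fold higher in 2iJ+B−A and 2.57% at least 2‐fold lower, and on chromosome 6 the share higher was 8.59% of 629, beside 6.07% over all compared genes. The X‐linked genes with high ratios included Esx1, Nxf7, Plac1, Rhox6, Rhox9 and Nrk. On chromosome 19 the share higher was 4.03% of 471. Chromosomes were looked at after the ratios were known, and the shares were not tested.

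Genes close to absent in 1 of both samples were few. In 2iJ, 9 of the higher genes had at most 3 counts, and the following genes were picked out after their values were seen. Sox9, a factor of cartilage and gonads, had 2 counts in 2iJ and 38 in 2iJ+B−A, the EGF receptor ligand Areg 3 and 40, and Nkx6-1, a factor of pancreas and neural tube, 2 and 41. In 2iJ+B−A, 9 of the lower genes had at most 3 counts, among them the streak ligand Fgf8, from 43 to 2 counts, the brain ubiquitin ligase Trim67, from 67 to 2, and the protease Klk1, from 41 to 1. Of the 817 higher genes 98.2% were protein coding, and of the 451 lower genes 91.1%, beside 95.04% of all compared genes. The amino acid transporter Slc38a4, also picked out after its values were seen, went from 8611 to 32812 counts, a log2 ratio of 1.80.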
